A study of Mus musculus with 2 samples.

Results

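CC chemokines are small secreted proteins that draw leukocytes towards their source, and 8 of their genes are described here in the mouse mammary carcinoma line 4T1. The genes Ccl2, Ccl5, Ccl7, Ccl9, Ccl17, Ccl20, Ccl25 and Ccl28 were taken by symbol, and all 8 were found among the 51912 rows of the deposited table that carry Ensembl identifiers. The M2 co-culture group was 4T1 cells that spent 3 days in the lower chamber of a transwell whose upper chamber held M2 macrophages, which are phagocytes in the alternatively activated state. The control group was 4T1 cells without those macrophages. Each group was 1 RNA-seq library of the 4T1 cells, so every value is a single measurement with no replicate error and no test between the groups is possible. No genotype, transgene or drug is named for either group, and the labels do not say whether control wells held an empty upper chamber. The co-culture library's title writes 4T2 where its treatment label writes 4T1, and the treatment label was followed.

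A CC chemokine carries its first pair of cysteines side by side, which gives the family its name. It signals through G-protein-coupled receptors of the CCR family, is held on cell surfaces by heparan sulfate, and is removed by atypical receptors that bind it without classical signalling. Many of these genes are induced by NF-kB downstream of TNF, IL-1 or Toll-like receptors. Their mRNAs are often short-lived, because proteins such as tristetraprolin bind AU-rich elements in them. In mammary tumours CCL2 is best known for recruiting monocytes that become tumour macrophages.

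Promoter sequences are shown for 3 members that differed in level, so that the letters before their starts can be read beside the values that follow. Ccl20 was among the abundant members, Ccl25 was detected at a low level, and Ccl9 was below the detection limit but held the most matches. RefSeq promoters of build GRCm38.p6 were given for 5 of the 8 members (Ccl9, Ccl17, Ccl20, Ccl25 and Ccl28), while Ccl2, Ccl5 and Ccl7 were not searched. Each line runs 5′ to 3′ on the gene's strand and ends at the base before the annotated start. Capitals mark matches to an NF-kB-like pattern (GGG and CC with any 5 bases between them), the AP-1 pattern TGANTCA, the TATA box TATAAA and a STAT6-type pattern (TTC and GAA with any 4 bases between them), on either strand. The Ccl20 window is chr1:83116516-83116765 on the plus strand, the Ccl25 window at its downstream start is chr8:4349338-4349587 on the plus strand, and the Ccl9 window is chr11:83578637-83578886 on the minus strand.
Ccl20: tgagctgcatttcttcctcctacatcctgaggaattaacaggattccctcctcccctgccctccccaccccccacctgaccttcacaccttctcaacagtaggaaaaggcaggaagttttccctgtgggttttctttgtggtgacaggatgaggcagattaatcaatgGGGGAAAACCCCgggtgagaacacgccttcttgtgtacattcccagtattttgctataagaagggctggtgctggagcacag
Ccl25: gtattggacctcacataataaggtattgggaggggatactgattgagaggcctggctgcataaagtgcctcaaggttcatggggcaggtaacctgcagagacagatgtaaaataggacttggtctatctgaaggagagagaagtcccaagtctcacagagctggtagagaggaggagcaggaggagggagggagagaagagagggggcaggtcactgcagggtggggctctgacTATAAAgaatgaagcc
Ccl9: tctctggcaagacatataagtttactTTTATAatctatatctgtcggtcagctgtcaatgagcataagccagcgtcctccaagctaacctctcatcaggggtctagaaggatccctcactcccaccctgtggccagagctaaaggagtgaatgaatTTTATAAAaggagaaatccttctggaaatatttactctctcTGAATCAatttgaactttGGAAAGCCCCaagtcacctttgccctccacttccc

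The capitals in Ccl20 are 3 overlapping NF-kB-like matches in 1 stretch, the first at position -82 and the last ending at -71, counted from the base before the start as -1. Ccl9 held 1 NF-kB-like match starting at -35, 1 AP-1 match at -53 and 3 TATA-box matches, of which those starting at -94 and -92 overlap. The downstream Ccl25 start had a TATA box from -16 to -11 and no NF-kB-like match, and its upstream start had no match to any of the 6 patterns searched. Ccl17 had 1 STAT6-type match starting at -154. Ccl28 had 1 NF-kB-like match at -64, which overlaps its 1 GC box (GGGCGG), and 1 AP-1 match from 21 to 27 bases after the start. The interferon element, GAAA and GAAA with any 2 bases between them, was found in none of these windows. Of 32851 promoters of 300 bases in the same table, 50.8% held the NF-kB-like pattern, 35.7% the GC box, 13.6% the TATA box, 7.81% the AP-1 pattern, 6.95% the STAT6-type pattern and 3.44% the interferon element. A match to the loose NF-kB-like pattern is therefore common and says nothing of binding.

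Expression was given as TPM, a transcript abundance per length, with each library scaled to the same total, so levels can be set beside each other between genes. Ccl2 was the most abundant CC chemokine in both libraries and its value in co-culture was close to 2-fold that of the control. The values of Ccl5, Ccl7 and Ccl20 were lower in co-culture, and that of Ccl25 was 1.27 times as high. With a mean of at least 1 TPM over both libraries as the limit of detection, 5 of the 8 members were detected and 3 (Ccl9, Ccl17 and Ccl28) were not. By the same limit 11258 of all 51912 Ensembl rows were detected. Of the 5 detected members 2 were higher in co-culture and 3 were lower, whereas of all 11258 detected genes 64.5% were higher and 35.4% were lower there. None of the 5 was at least 2-fold higher or lower, against 4.95% of detected genes that were at least 2-fold higher and 2.14% that were at least 2-fold lower. At a line of 1.5-fold 1 detected member was higher (Ccl2) and 2 were lower (Ccl7 and Ccl20), against 18.6% of detected genes higher and 6.37% lower. With 1 library per group the 2-fold line is a description of size, read from log2((TPM + 1) in co-culture over (TPM + 1) in control).

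**Figure D1:**
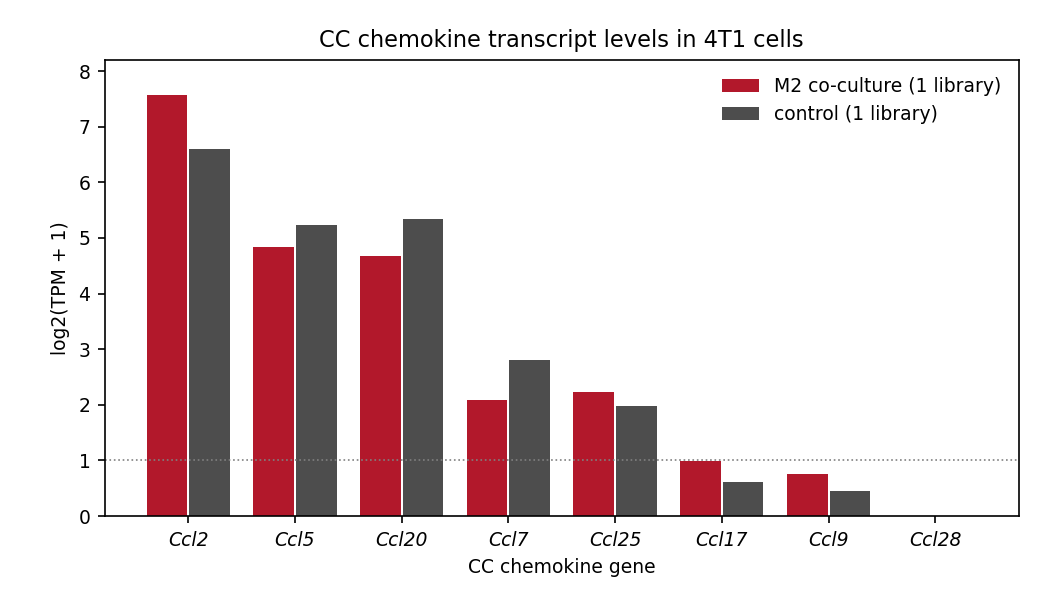
Level of each CC chemokine gene as log2(TPM + 1) in the M2 co-culture library (red) and the control library (grey), with 1 library per bar and no error bars; the dotted line is 1 TPM. Ccl2 is the tallest pair and the higher bar is co-culture, while Ccl5, Ccl20 and Ccl7 are taller in control and Ccl28 is at 0 in both.

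Ccl2 (ENSMUSG00000035385) encodes the ligand of CCR2 that attracts monocytes. It lies on the plus strand of chromosome 11 of GRCm38 from 82035571 to 82037453, and its longest coding transcript has 3 exons. The gene had 189.5 TPM in co-culture and 95.9 TPM in control, a log2 ratio of 0.98 or a linear ratio of 1.98. It ranked 645th of the 51912 Ensembl rows in co-culture and 1181st in control. Of all detected genes 5.42% had a log2 ratio at least as high. The overlapping gene Gm17268 on the opposite strand was at 0 TPM in both libraries.

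Ccl7 encodes a further monocyte attractant, which binds CCR1, CCR2 and CCR3. Its start lies 10.1 kb downstream of the Ccl2 start on the same strand, from 82045712 to 82047525. It had 3.22 TPM in co-culture and 5.97 TPM in control, a log2 ratio of -0.72. The neighbours thus differed in opposite directions, and Ccl2 was 58.9 times as abundant as Ccl7 in co-culture and 16.1 times in control. The comparison of these ratios within a library does not depend on how the libraries are scaled. Ccl7 was a low transcript, at which a few reads can move a TPM, and the depth is unknown.

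Ccl5, which encodes the T-cell and monocyte attractant RANTES, a ligand of CCR1 and CCR3, lies on the minus strand of chromosome 11 from 83525778 to 83530518. It had 27.6 TPM in co-culture and 36.8 TPM in control, a log2 ratio of -0.41. Of all detected genes 10.8% had a ratio at least as low. Ccl20 encodes the ligand of CCR6, which attracts Th17 cells, B cells and immature dendritic cells. It lies on the plus strand of chromosome 1 from 83116766 to 83119167 and had 24.4 TPM in co-culture and 39.7 TPM in control, a log2 ratio of -0.68. A ratio at least as low was found in 4.73% of detected genes. These 2 genes changed places in the order of levels, with Ccl5 at 1.13 times the Ccl20 level in co-culture and 0.93 times in control, and no replicate spread is at hand to say whether either library separates them.

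Ccl25 encodes the ligand of CCR9, known for guiding thymocytes and gut-homing T cells. Its annotation spans chromosome 8 from 4325210 to 4360020 on the plus strand. It had 3.70 TPM in co-culture and 2.92 TPM in control, a log2 ratio of 0.26, and 41.6% of detected genes had a ratio at least as high. Exons of its upstream start overlap exons of Elavl1 on the opposite strand, which had 48.4 TPM in co-culture and 45.4 TPM in control. Of the 31-base stretches in Ccl25 transcripts 2.32% also occur in Elavl1, and the sources used here do not give the strandedness of the libraries, so reads there cannot be assigned with certainty. The other members shared at most 3.98% of such stretches with other genes, the value of Ccl9.

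The remaining members were below the detection limit of a mean of 1 TPM. Ccl17, a CCR4 ligand that attracts Th2 and regulatory T cells and is typical of IL-4-treated macrophages and dendritic cells, had 0.98 TPM in co-culture and 0.53 TPM in control. Ccl9, a CCR1 ligand of mice, had 0.69 TPM in co-culture and 0.37 TPM in control. Ccl28, a mucosal epithelial chemokine that binds CCR3 and CCR10, was listed at 0 in both libraries. TPM was deposited to 2 decimals, and no detection floor can be computed without counts.

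**Figure D2:**
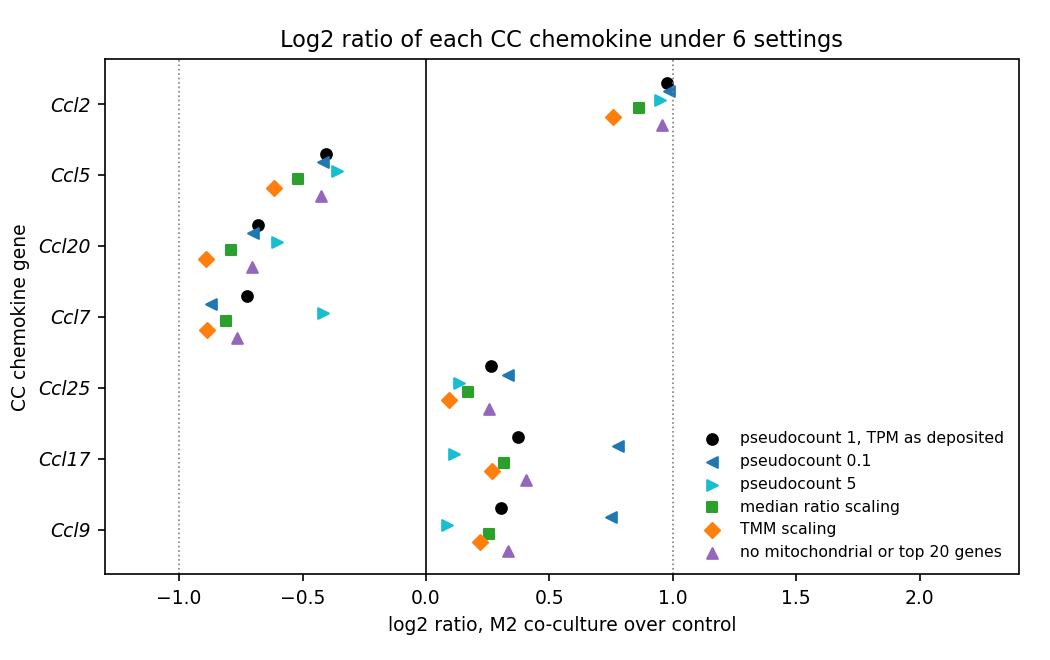
Log2 ratio, M2 co-culture over control, of the 7 members above 0 under 6 settings, with symbols for each pseudocount and library scaling; dotted lines mark 2-fold. Ccl2 stays between 0.76 and 0.98, Ccl5, Ccl20 and Ccl7 stay below 0 and Ccl25, Ccl17 and Ccl9 stay above 0 in all 6.

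Summed over the 8 members, CC chemokine mRNA came to 250.1 TPM in co-culture and 182.2 TPM in control, a ratio of 1.37. Ccl2 alone held 75.8% of that sum in co-culture and 52.6% in control. Without Ccl2 the sum was 60.55 TPM in co-culture and 86.3 TPM in control. Ccl20 held 9.76% of the full sum in co-culture and 21.8% in control, and Ccl5 held 11.02% in co-culture and 20.2% in control. The make-up of the sum was thus more heavily Ccl2 in co-culture. The ratio of Ccl2 to Ccl20 was 7.77 in co-culture and 2.42 in control, and that of Ccl2 to Ccl5 was 6.88 in co-culture and 2.60 in control. The ratio of Ccl2 to Ccl25, the other detected member with a higher value, was 51.2 in co-culture and 32.8 in control. Among the 3 lower members, Ccl20 was at 7.58 times Ccl7 in co-culture and 6.65 times in control, and Ccl5 at 8.56 times Ccl7 in co-culture and 6.17 times in control.

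**Figure D3:**
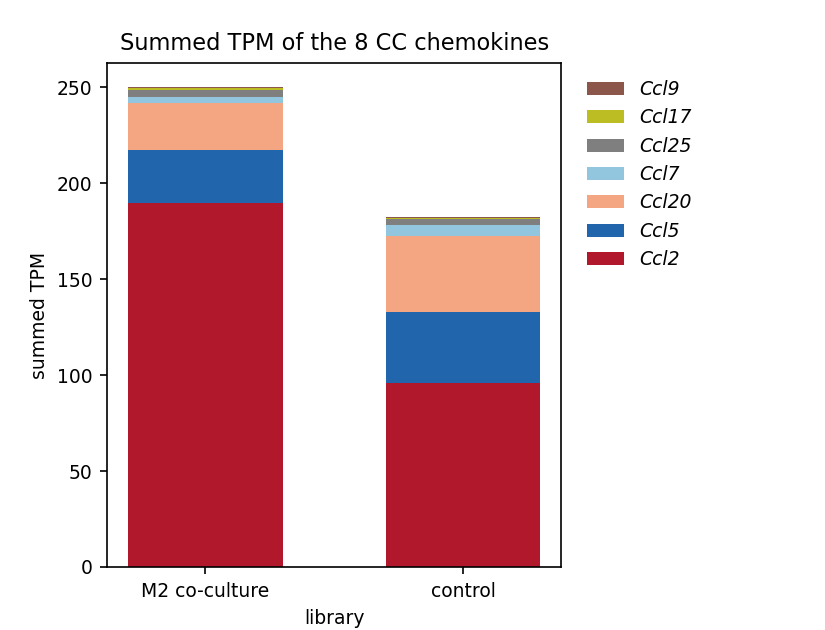
Summed TPM of the 8 CC chemokine genes in the M2 co-culture library (left) and the control library (right), stacked by gene. The Ccl2 block is 189.5 TPM of 250.1 in co-culture and 95.9 TPM of 182.2 in control, and the Ccl5, Ccl20 and Ccl7 blocks are smaller in co-culture.

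The rest of the ligand family was almost silent. Another 15 rows had a CC chemokine symbol, none of them was detected and 11 were at 0 in both libraries, with a summed level of 0.97 TPM in co-culture and 0.35 TPM in control. Ccl3, a CCR1 ligand, had 0.84 TPM in co-culture and 0.17 TPM in control. In the Ccl2 cluster on chromosome 11, Ccl11, Ccl12 and Ccl1 were at 0 in both libraries and Ccl8 was at 0 TPM in co-culture and 0.18 TPM in control. In the Ccl5 cluster, Ccl6 had 0.08 TPM in co-culture and was at 0 in control, and Ccl4 was at 0 in both. On chromosome 8 Ccl17 lies near Cx3cl1, which encodes the membrane-bound chemokine fractalkine and starts 26.4 kb downstream of Ccl22. Cx3cl1 had 51.5 TPM in co-culture and 17.1 TPM in control, while Ccl22, the other CCR4 ligand there, had 0.05 TPM in co-culture and was at 0 in control. High and silent chemokine genes therefore lay side by side in these stretches.

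**Figure D4:**
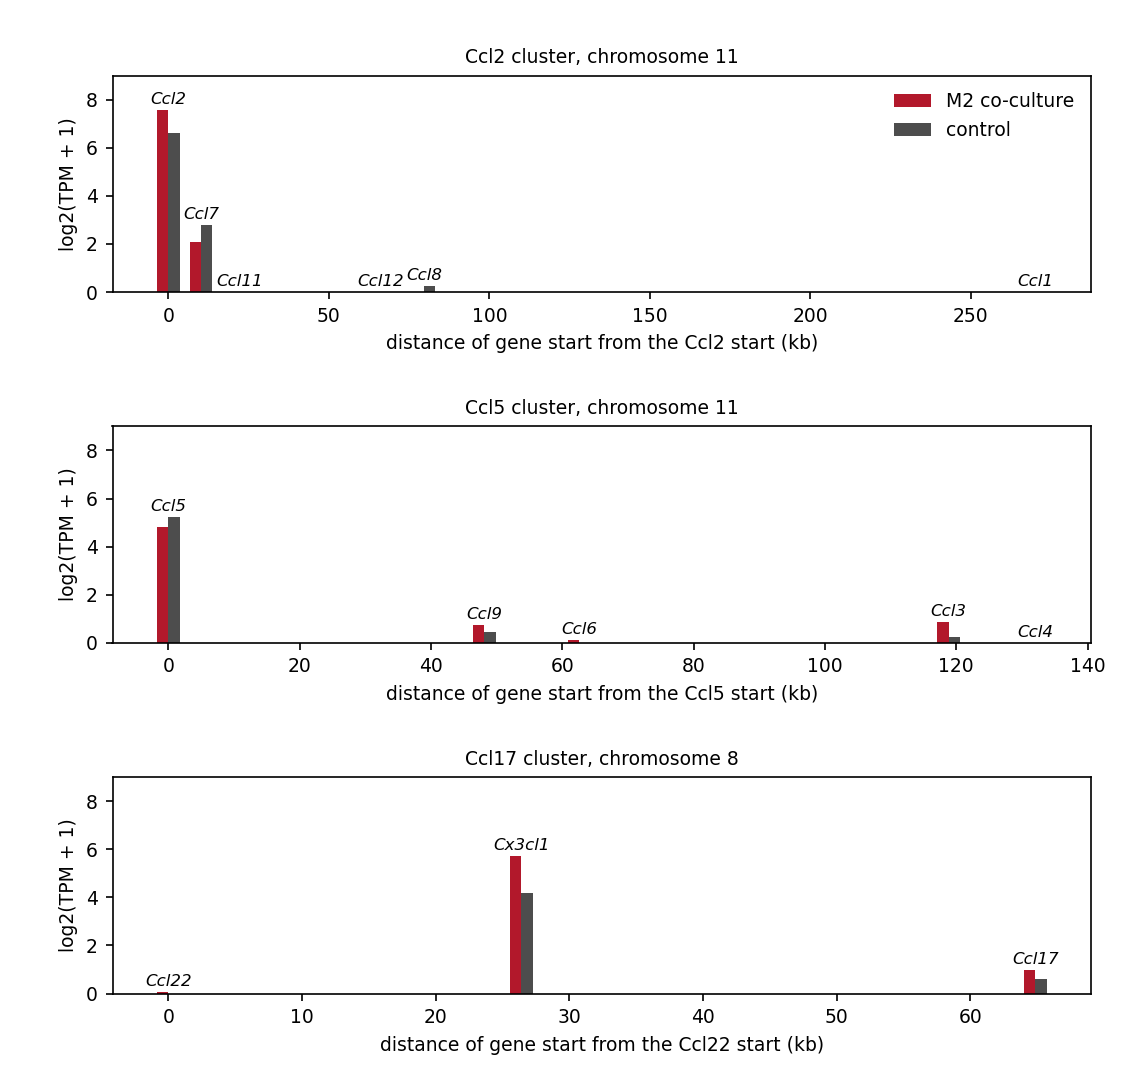
Level as log2(TPM + 1) of each chemokine gene in 3 stretches of the genome, in M2 co-culture (red, left) and control (grey, right), against the distance in kb of its start from that of the first gene. Ccl2 and Ccl7 are the detected genes of the first stretch and differ in opposite directions, Ccl5 is the detected gene of the second and Cx3cl1 of the third.

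Features of the mRNAs varied as well. The pentamer ATTTA, the core of an AU-rich element, occurred 9 times in the 1050-base 3′ untranslated region of Ccl20. It occurred 5 times each in those of Ccl9 (2465 bases) and Ccl28 (3293 bases). There were 2 in that of Ccl7 (435 bases) and 1 in that of Ccl2 (275 bases). None was found in those of Ccl5 (199 bases), Ccl17 (183 bases) and Ccl25 (505 bases). Of 20962 protein-coding genes 64.7% had at least 1 in that region of their longest coding transcript, a share not matched for length. The pentamer was present in Ccl2, with a higher value in co-culture, and in Ccl7 and Ccl20, with lower ones. It was absent from Ccl25, with a higher value, and from Ccl5, with a lower one. A part of mRNA decay in these values was not tested.

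Among proteins that bind or cut such mRNAs, the values in co-culture were higher for 6 of 7 genes (5 with a TMM scaling factor) and lower for 1, where 64.5% of all detected genes were higher. None was at least 2-fold different, against 4.95% of detected genes at least 2-fold higher and 2.14% at least 2-fold lower. The median log2 ratio was 0.29 against 0.17 for all detected genes. Zfp36, which encodes tristetraprolin, had 8.76 TPM in co-culture and 4.37 TPM in control. Rc3h1, which encodes the decay factor roquin-1, had a log2 ratio of 0.71, Zfp36l2 had 0.49 and Zc3h12a, which encodes the RNase regnase-1, had 0.29. The mRNA of Elavl1, which encodes the stabilising protein HuR, had a ratio of 0.09.

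Receptors of CC chemokines were read as well. Of 10 CCR genes 2 were detected, where 11258 of all 51912 Ensembl rows were. Both had higher values in co-culture, where 64.5% of all detected genes were higher. Neither was at least 2-fold higher, against 4.95% of detected genes. Their median log2 ratio was 0.77, against 0.17 for all detected genes. Ccr9, the receptor of the Ccl25 product, had 14.7 TPM in co-culture and 7.38 TPM in control. Ccl25 itself was low, at 3.70 TPM in co-culture and 2.92 TPM in control, and its reads in the Elavl1 overlap cannot be assigned with certainty. The annotated exons of Ccr9 overlap those of Slc6a20a on the opposite strand, which was at 0 in both. Its span also overlaps that of Lztfl1 on the opposite strand, at 3.32 TPM in co-culture and 3.23 TPM in control, without shared exons. Ccr10, a receptor for CCL27 and CCL28, had 2.80 TPM in co-culture and 1.46 TPM in control, while Ccl28 and Ccl27a were at 0. The span of Ccr10 overlaps that of Cntnap1 on the opposite strand, at 13.3 TPM in co-culture and 12.1 TPM in control, without shared exons, and reads from stretches where genes overlap cannot be told apart without strand. Ccr2 was at 0 TPM in co-culture and 0.03 TPM in control, and Ccr6 was at 0 in both. The main receptors of the abundant ligands Ccl2 and Ccl20 were thus not detected. Of the 5 atypical receptor genes 1 was detected, namely Ackr3, a scavenger of CXCL12, with 9.98 TPM in co-culture and 4.00 TPM in control (log2 ratio 1.13). Ackr2, which encodes the main scavenger of inflammatory CC chemokines, was at 0 in both.

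Genes of the NF-kB pathway, which induces Ccl2, Ccl5 and Ccl20, differed in both directions. All 13 were detected, 8 with higher and 5 with lower values in co-culture (4 higher with the TMM factor), where 64.5% of all detected genes were higher. The median log2 ratio was 0.13, against 0.17 for all detected genes, and -0.087 with the TMM factor. The 1 gene at least 2-fold higher was Tnfaip3, which encodes the feedback inhibitor A20, at 20.7 TPM in co-culture and 4.35 TPM in control. Of all detected genes 4.95% were at least 2-fold higher. The subunit gene Nfkb1 had a ratio of 0.64, the inhibitor gene Nfkbia 0.58 and the kinase scaffold gene Ikbkg -0.77. Rela, the subunit gene of p65, had 41.6 TPM in co-culture and 41.7 TPM in control. Of 9 other transcription factor genes 6 were higher (5 with the TMM factor), close to the 64.5% of all detected genes, and 3 were lower, none at least 2-fold, and their median was 0.18. Jun had 54.7 TPM in co-culture and 28.8 TPM in control, and Cebpb had 131 TPM in co-culture and 235 TPM in control. Fos, with a ratio of -0.47, had 0.93 TPM in co-culture and 1.67 TPM in control. It passed the detection limit only through its control value.

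Receptors for cytokines and microbial signals that induce CC chemokines had mostly higher values in co-culture, namely 10 of 11 genes, or 9 with the TMM factor. Of all detected genes 64.5% were higher. The list median was 0.47, and 2 genes, Il1r1 and Tlr3, were at least 2-fold higher, against 4.95% of detected genes. Il1r1, the IL-1 receptor gene, had 9.06 TPM in co-culture and 3.06 TPM in control. Tlr3 had 2.34 TPM in co-culture and 0.63 TPM in control, so it passed the detection limit only through its co-culture value, and it was below 2-fold with the TMM factor (0.89) and with the median ratio scaling (0.96). Tlr4 had 4.42 TPM in co-culture and 1.78 TPM in control. Il13ra1, a subunit of the type II IL-4 and IL-13 receptor, had a ratio of 0.62. Il17ra was the exception, with 7.19 TPM in co-culture and 10.8 TPM in control.

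Molecules that handle secreted CC chemokines outside the cell were also compared. Of 9 genes that carry or build heparan sulfate 8 had higher values in co-culture (5 with the TMM factor), where 64.5% of all detected genes were higher, and their median was 0.23. Sdc4, which encodes syndecan-4, had 278 TPM in co-culture and 148 TPM in control. Ndst1, a heparan sulfate sulfotransferase gene, was the 1 of them at least 2-fold higher, against 4.95% of all detected genes. Its ratio was 1.12, or 0.91 with the TMM factor. The span of Ndst1 overlaps that of the abundant Rps14 on the opposite strand, without shared exons. Rps14 had 2065 TPM in co-culture and 2293 TPM in control, and reads from the overlap cannot be told apart without strand. The ratio was 0.55 for Hs2st1 and 0.52 for Sdc3. Of 7 proteases that can trim CC chemokines 2 were detected, with a median of 0.93. Mmp3 had 116.6 TPM in co-culture and 64.8 TPM in control, and Mmp14 had 69.2 TPM in co-culture and 33.6 TPM in control. Dpp4, which encodes the dipeptidyl peptidase that clips CCL5, was at 0 in both.

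**Figure D5:**
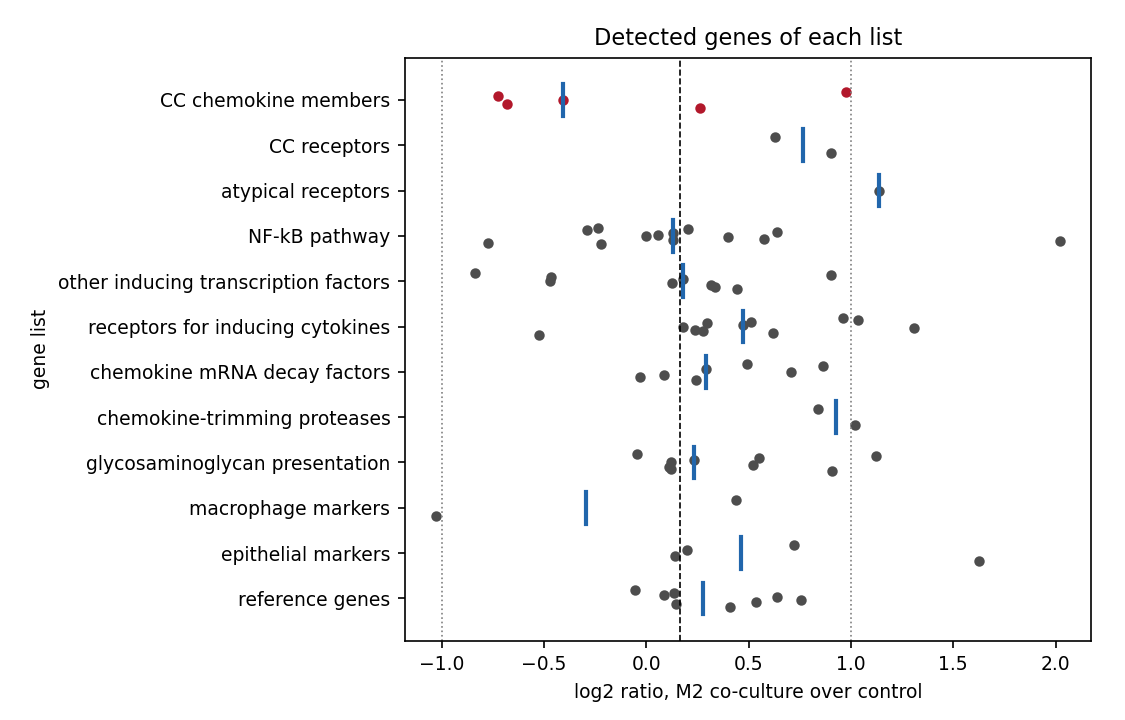
Log2 ratio, M2 co-culture over control, of each detected gene (points) in the CC chemokine members (red) and in 11 other lists (grey), with the list median as a blue bar; the dashed line is the median of all detected genes, 0.17, and dotted lines mark 2-fold. The 5 chemokines span -0.72 to 0.98 with a median of -0.41, the lowest median among these 12 lists.

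Genes with levels most like those of a member were sought among 6490 protein-coding genes with a mean of at least 10 TPM, by distance over the 2 libraries on the log2(TPM + 1) scale. With only 2 libraries many genes come close, and the likeness is a description of level and ratio. Nearest to Ccl2 was Anln, which encodes the cytokinesis protein anillin, at 180.1 TPM in co-culture and 104.8 TPM in control, followed by Scarb2 and Pttg1. Nearest to Ccl5 were Babam2, Mrps22 and Pdzd11, and nearest to Ccl20 were Ufm1, Mrpl32 and Tmem214. Ufm1, a ubiquitin-like modifier gene, had 25.1 TPM in co-culture and 39.7 TPM in control.

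Macrophages make several of these chemokines, so their markers were read in both libraries. Of 17 macrophage markers 2 were detected and 9 were at 0 in both, with a summed level of 40.6 TPM in co-culture and 66.7 TPM in control. Cd68, at 27.8 TPM in co-culture and 57.7 TPM in control, and Cd14, at 12.4 TPM in co-culture and 8.87 TPM in control, made up nearly all of it. Their list median was -0.29. The defining markers Adgre1, Tyrobp, Fcer1g, Itgam and Ptprc were at 0 in both libraries, and the M2 markers Arg1, Chil3 and Retnla were too. The part of Cd68 and Cd14 signal in the chemokine values was not tested. None of 9 lymphocyte and granulocyte markers was detected, with sums of 0.23 TPM in co-culture and 0.16 TPM in control, and none of 8 fibroblast and endothelial markers, with sums of 0.67 TPM in co-culture and 0.37 TPM in control. In bulk RNA, fewer cells of a type and less RNA per cell cannot be told apart.

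The cells were checked against epithelial markers, of which 4 of 8 were detected. Krt8 had 630.4 TPM in co-culture and 548 TPM in control, and Krt18 had 484 TPM in co-culture and 439 TPM in control. Cldn3 had 14.1 TPM in co-culture and 8.14 TPM in control. Krt19 was the 1 epithelial marker at least 2-fold higher, against 4.95% of all detected genes. It had 2.64 TPM in co-culture and 0.18 TPM in control and passed the detection limit only through its co-culture value. Epcam and Krt5 were at 0 in both, and Cdh1 was at 0.01 TPM in co-culture and 0.04 TPM in control. The defining epithelial markers Epcam and Cdh1 were thus not detected. Of 8 reference genes 7 had higher values (4 with the TMM factor), where 64.5% of all detected genes were higher. Their median was 0.28, against 0.17 for all detected genes, and Hprt had the largest ratio, 0.75. Actb had 2081 TPM in co-culture and 1337 TPM in control, a log2 ratio of 0.64, and Ppia had a ratio of -0.05. Centring on the median ratio of abundant transcripts lowered log2 ratios by up to 0.12, and a TMM factor lowered them by up to 0.22. The shift was smaller for low genes, because the pseudocount was added after scaling. Of genes past 2-fold 69.8% were higher in co-culture as deposited, 58.1% after the first scaling and 45.9% after the second. No CC chemokine changed direction under either, and the ratio of Ccl2 was 0.86 after the first and 0.76 after the second.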

How the data were processed

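The authors deposited 1 table of TPM values with 1 column for each of the 2 libraries. Per the submitters' processing notes, HISAT2 2.1.0, RSEM 1.2.31 and build GRCm38.p5 were used, without their roles. The sources used here do not give the annotation, strandedness or filters. RSEM can divide reads between genes that share sequence. TPM keeps no depth, so no counting interval or floor was computed. The table held 52796 rows, of which 51912 had Ensembl identifiers (51633 with a symbol in GENCODE M21) and 884 were assembled loci not used here.

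Log2 ratios used a pseudocount of 1, which understates the change of low genes, and detection meant a mean of at least 1 TPM. Positions, transcripts and overlaps came from GENCODE M21 on GRCm38, 1-based, and promoters from RefSeq. Members and lists were chosen with earlier results of these data known. The pentamer, shared-stretch and overlap counts were added after the table was seen. Named genes were all members, up to 4 detected genes per other list with the largest absolute ratio, marker genes with the highest TPM or at 0, the 3 nearest genes for each member with a mean of at least 10 TPM, and neighbours in the clusters. Elavl1, Rela, Il17ra, Ppia, Cdh1, Slc6a20a, Lztfl1, Cntnap1, Rps14, Gm17268, Ccr2, Ccr6, Ackr2, Dpp4 and Ccl27a are named beyond that rule, with their values seen. A gene chosen by this rule is left out of the text. Protein sequences were not used here. Calculations used Python 3.11.15, pandas 2.3.3 and numpy 2.4.6. The ratio procedure was run on simulated data built with the same ratio formula, which checks the code and not the results.

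The pseudocount was also set to 0.1 and 5, the filter was dropped or raised to 10 TPM, and the line was set to 1.5-fold. Libraries were also scaled in 3 other ways. These were a median ratio over genes of at least 10 TPM on average, an unweighted TMM factor over genes above 0 in both libraries (ratio trim 30%, level trim 5%), and a new total that left out the 20 most abundant genes and the mitochondrially encoded ones. A median or sum counted as moved when it shifted by more than 1.5-fold.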

Additional observations from a re-analysis of the deposited data

How the results depend on the processing

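The log2 ratios of the 7 members above 0 kept their sign and stayed within 2-fold under both other pseudocounts and the 3 other scalings. They ranged from 0.76 to 0.98 for Ccl2, -0.62 to -0.36 for Ccl5, -0.89 to -0.60 for Ccl20, -0.89 to -0.42 for Ccl7 and 0.09 to 0.33 for Ccl25. The undetected Ccl9 and Ccl17 depended most on the pseudocount, at 0.08 to 0.75 and 0.11 to 0.78. With a 1.5-fold line 1 detected member was higher (Ccl2) and 2 were lower (Ccl7 and Ccl20), where 18.6% of detected genes were higher and 6.37% lower. With undetected genes kept, the median over the 8 members was 0.13, against -0.41 over the 5 detected ones, and the medians of CC receptors, atypical receptors and trimming proteases became 0.0064, 0 and 0.12, since members at or near 0 then enter. The median of the NF-kB list was -0.087 with the TMM factor, whose shift exceeds that median. With that factor Ackr3 (0.94), Tlr3 (0.89), Mmp14 (0.80) and Ndst1 (0.91) were below 2-fold, and Tnfaip3 (1.81), Il1r1 (1.11), Krt19 (1.47) and Cd68 (-1.24) were not. With a pseudocount of 5 Tnfaip3 (1.46) and Ndst1 (1.001) stayed past 2-fold, and Ackr3 (0.74), Il1r1 (0.80), Tlr3 (0.38), Mmp14 (0.94), Krt19 (0.56) and Cd68 (-0.93) did not. The log2 ratio of the summed TPM was 0.24 to 0.46 over the scalings. No paired analysis was possible because each group had 1 library, and no library could be left out. Depth is unknown, which limits the low members Ccl7, Ccl25, Ccl17 and Ccl9 most.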
